A study of Mus musculus with 7 samples.

Results

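The genes that encode the proteins of the cytoplasmic ribosome were followed in whole fetal testis. Members were all rows of the deposited gene table whose symbol is Rpl or Rps followed by a number and, where present, the letters a, x, y or l, together with *Rplp0*, *Rplp1*, *Rplp2* and *Rpsa*. The rule gave 82 of 24739 genes: 30 canonical genes of the small subunit, 46 of the large subunit, and 6 whose symbol ends in l (*Rpl3l*, *Rpl10l*, *Rpl36al*, *Rpl39l*, *Rps4l* and *Rps27l*), each a relative of the gene it is named after. RNA-Seq libraries came from testes at E14.5 of mice on the C57BL/6 background, where both testes of 1 embryo made a library, 3 of them labelled wild-type and 4 homozygous for *Glis3* zf5 (*Glis3* zf5/zf5), a global null allele of the zinc finger transcription factor GLIS3 carried by all cells of the animal. RNA depleted of ribosomal RNA was read without selection of poly-A tails, and levels are given as FPKM (fragments per length of transcript, scaled by library). The labels say that each library is a biological replicate from 1 animal.

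A eukaryotic ribosome holds a single copy of nearly every one of these proteins, and their mRNAs are among the most abundant and most evenly expressed of a growing cell. Most ribosomal protein genes have left processed pseudogenes, intronless copies of their mRNA, across the mouse genome, and a short read from the mRNA can match several of them equally well. A few members have functional duplicates. *Rpl10l* and *Rpl39l* are known for expression in male germ cells, *Rpl3l* for expression in skeletal muscle and heart, and *Rps27l* as a target of the p53 tumour suppressor.

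The sums of FPKM over all genes reached from 694243 to 1018680 per library, and those over the 82 members from 30196 to 33985. The number of fragments behind an FPKM value is unknown. *Glis3* itself was at 7.63, 6.89 and 2.91 FPKM in wild-type replicates 1 to 3, named as labelled, and at 3.86, 3.26, 2.90 and 2.66 FPKM in mutant replicates 1 to 4. Its value in the library labelled wild-type replicate 3 was inside the mutant range. By the paper, the allele lacks only part of the gene, and *Glis3* mRNA of wild-type testes had returned to baseline by this age. *Glis3* FPKM alone therefore does not tell the genotype of a library. Wild-type replicate 3 was singled out by its values, not by its label. Calls that change without that library are given both ways. The list of 15 germ cell genes summed to 1488, 1204 and 622 FPKM in the wild-type libraries and to 698, 584, 570 and 505 FPKM in the mutant libraries, again with the library labelled wild-type replicate 3 inside the mutant range. That holds for the sum. In 4 of the 15 genes every mutant library was below every wild-type library, replicate 3 included (background 7.59% of genes tested). In whole testis, fewer cells of a type and less RNA per cell cannot be told apart.

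Sequences of the relatives are shown first, since they decide whether a read can tell a gene from its relative. The first 60 bases of the coding sequence are given for the 3 pairs that the comparison of genotypes below turns on, from GENCODE M21 on GRCm38 (the assembly also called mm10), with capitals for the bases that differ between the members of a pair. *Rpl10* (chrX:74270816-74273135, plus strand) and the single-exon gene *Rpl10l* (chr12:66283379-66284401, minus strand) were identical at 84.7% of 642 aligned coding bases. *Rpl39* (chrX:37082520-37085184, minus strand) and *Rpl39l* (chr16:10170228-10174911, plus strand) were identical at 85.0% of 153 bases. *Rps4x* (chrX:102184943-102188371, minus strand) and *Rps4l* (chr6:148354656-148355596, plus strand) were identical at 79.9% of 783 aligned bases.
Rpl10: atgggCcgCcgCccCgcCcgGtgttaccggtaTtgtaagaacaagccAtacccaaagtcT
Rpl10l: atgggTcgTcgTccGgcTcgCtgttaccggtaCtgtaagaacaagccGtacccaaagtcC
Rpl39: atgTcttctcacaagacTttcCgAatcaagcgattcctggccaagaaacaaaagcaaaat
Rpl39l: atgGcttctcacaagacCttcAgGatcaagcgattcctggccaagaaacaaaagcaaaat
Rps4x: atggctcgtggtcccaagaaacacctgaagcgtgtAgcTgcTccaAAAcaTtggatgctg
Rps4l: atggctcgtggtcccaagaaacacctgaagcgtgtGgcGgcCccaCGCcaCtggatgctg

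Within these stretches 9, 4 and 7 bases differed. GENCODE lists *Rps4l* as a transcribed processed pseudogene with 1 exon and no coding sequence, so its line is the stretch aligned to the start of *Rps4x*. The other 3 pairs were identical at 74.8% (*Rpl3l*), 87.7% (*Rpl36al*) and 76.2% (*Rps27l*) of their aligned coding bases. Canonical *Rpl10*, *Rpl36a*, *Rpl39* and *Rps4x* lie on the X chromosome, and the 6 relatives lie on autosomes. No window of 100 bases of the *Rpl3l*, *Rpl10l*, *Rpl39l* or *Rps27l* transcripts was found in another annotated gene, against 1.66% of windows for *Rps4l* and 28.6% for *Rpl36al*. Exact windows miss copies that differ at scattered bases. *Rpl10l* had 1 such copy, *Gm14460*, with 97.3% identity over at least 90% of the coding sequence.

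The FPKM values of the members were far from even. Their means over the 7 libraries differed 32700-fold, with 12 members at 1000 FPKM or more, 20 from 100 to 1000, 22 from 10 to 100, 19 from 1 to 10 and 9 under 1. The 8 highest members held 59.6% of the summed FPKM of all 82. Highest was *Rpl41*, which encodes the smallest protein of the ribosome, at 3021, 3154 and 3451 FPKM in the wild-type libraries and 3227, 3142, 3217 and 3475 FPKM in the mutant libraries. *Rps9*, which encodes a protein of the small subunit, had a mean of 2735 FPKM.

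At the other end, the 3 lowest members were *Rpl28* (highest library 0.251 FPKM), *Rpl9* (highest 0.348 FPKM) and *Rps12* (highest 0.524 FPKM), each listed at 0 in at least 1 library. *Rpl10*, which encodes a protein added late in the assembly of the large subunit, had values of 0.215, 0.429 and 0.116 FPKM in the wild-type and at 0.692, 0.208, 0.498 and 0.441 FPKM in the mutant libraries. All of these proteins are components of the ribosome of every cell, as are those of the most abundant members. Within a member, levels mostly varied far less than between members. Of the 75 members with a mean of at least 0.5 FPKM, 43 differed less than 1.5-fold between their highest and lowest library. The range reached 69.7-fold in *Rpl3* and 612-fold in *Rps18*. The median coefficient of variation of members at 100 FPKM or more was 7.7%. These values were not computed over all genes, so they are not shown to be particular to the members.

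**Figure D1:**
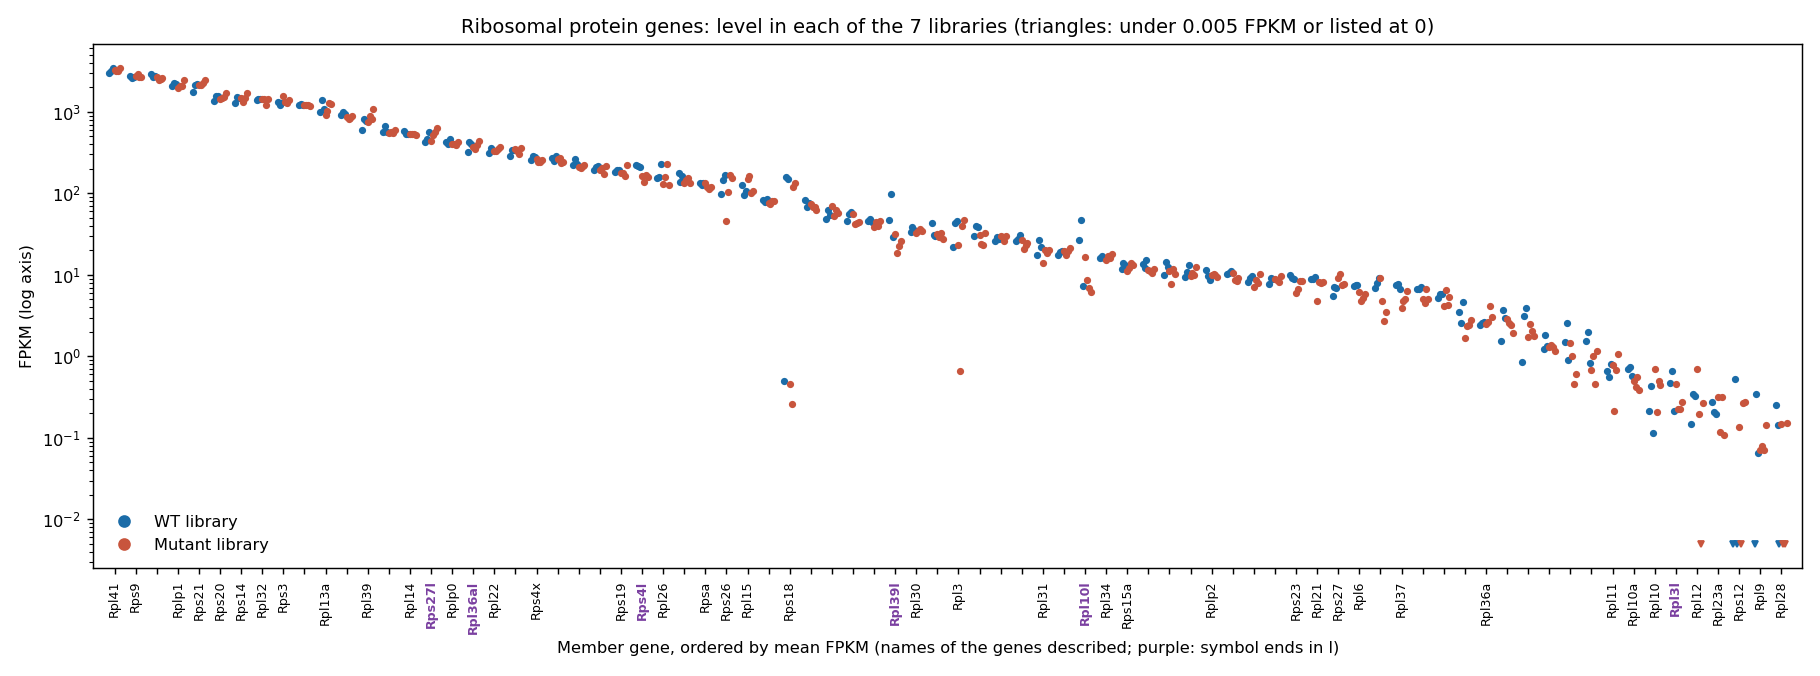
FPKM on a log axis for 80 of the 82 members, ordered by mean and named where the text describes them, with 1 point per library (blue, 3 wild-type; red, 4 mutant) and triangles for values under 0.005 FPKM or listed at 0. Points of a gene lie close together over most of the range, while *Rps18* and *Rpl3* have libraries far below their others.

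The level of a canonical member went with the share of its sequence that is found elsewhere. Transcripts were cut into all windows of 100 bases, and windows with an exact match, on either strand, in a GENCODE transcript of a gene at another place were counted. Of the 12 canonical members with under 10% of windows elsewhere, 8 were at 1000 FPKM or more and none was under 10 FPKM, with a median of 1280 FPKM. The 37 members with 10% to 50% of windows elsewhere had a median of 35.3 FPKM. The 27 members with at least 50% had a median of 6.35 FPKM, 18 were under 10 FPKM, and the highest reached 262 FPKM. Over the 76 canonical members, Spearman's rho between this share and the mean level was -0.646, against -0.382 for the number of copies with at least 95% identity over at least 90% of the coding sequence and 0.073 for transcript length. These are descriptions across genes that share the same 7 libraries, and unannotated copies were not counted. The share is taken over the whole transcript, so a long stretch outside the coding sequence can lower it. A share under 10% is thus not the same as having no copy. *Rps15a* (5179 bases, 390 of them coding) had 6 such copies and *Rpl39* 9, whereas *Rps3* and *Rpl8* had 0.

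*Rps3* and *Rps21* had no such window. *Rpl10* had 91.6% of its windows in 10 other genes, *Rpl9* 87.0% in 7 and *Rps12* 81.6% in 20. The 8 canonical members under 1 FPKM had between 31.3% and 91.6% of windows elsewhere and between 1 and 22 copies, and the 12 at 1000 FPKM or more between 0% and 30.0% and between 0 and 5 copies. The authors' alignment could keep a read at several places, and how such reads were shared among copies before FPKM was computed was not tested. FPKM of members with shared windows are therefore uncertain as levels of the named gene.

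**Figure D2:**
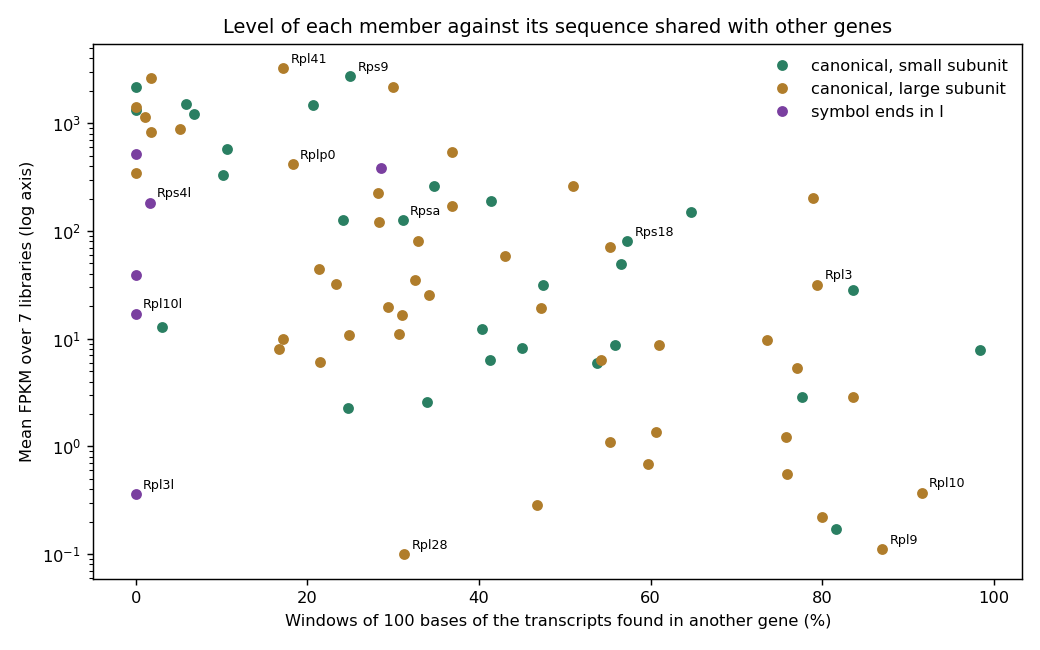
Mean FPKM over 7 libraries (log axis) against the percentage of 100-base windows of 80 members that are found in another gene (green, 28 canonical small subunit genes; ochre, 46 large subunit genes; purple, 6 genes whose symbol ends in l). The canonical members at 1000 FPKM or more all lie at 30.0% or below, and no canonical member beyond 50% exceeds 262 FPKM.

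The table also held 9 rows named as pseudogenes or retrotransposed copies of a member, looked up after values had been seen, of which 5 had a higher mean than their member and 4 a lower one. *Rplp2*, which encodes a protein of the P-stalk, was at 8.58 to 11.4 FPKM over the 7 libraries, and its pseudogene row *Rplp2-ps1* at 965 to 1137 FPKM. *Rpl37* was at 3.95 to 7.77 FPKM and the row of its retrotransposed copy *Rpl37rt* at 788 to 977 FPKM. *Rpl14* was at 517 to 586 FPKM and *Rpl14-ps1* at 1328 to 1570 FPKM. *Rps27* was at 5.58 to 10.4 FPKM, had 98.4% of windows elsewhere, and shared its listed place on chromosome 3 with a row for its copy *Rps27rt*, which was listed at 0 in 5 libraries and had at most 0.152 FPKM in the others. *Rps19-ps3* had a mean of 8.89 FPKM, against 188.6 FPKM for *Rps19*, and *Rpl31-ps12* was near 0, against 19.9 FPKM for *Rpl31*.

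A second readout came from reads in LINE, SINE and LTR elements inside the members' gene spans, counted by the authors from uniquely mapped reads only. Of the 82 members, 59 had 198 such loci that lay inside no other gene. Of the 8 canonical members under 1 FPKM, 5 had such loci, and reads were present there in every library. *Rpl10a* had 470 to 665 reads in 2 loci, *Rpl23a* 175 to 295 reads in 2 intronic loci, *Rpl10* 124 to 192 reads in 2 loci, *Rpl11* 66 to 114 reads in 4 loci and *Rpl28* 41 to 58 reads in 1 locus. *Rpl9*, *Rpl12* and *Rps12* had no locus. The 2 loci of *Rpl10a* and the 1 locus of *Rpl28* touched an annotated exon, with 3785 and 333 reads over all libraries. So did 1 locus of *Rpl10* (921 reads) and 2 loci of *Rpl11* (168 reads). Exon and intron loci are otherwise summed, and a locus that touches an exon can reach beyond it. The counts are therefore no measure of the mature mRNA.

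Single libraries stood apart in a few members. Among the 54 members with a mean of at least 10 FPKM, 2 (*Rps18* and *Rpl3*) had a library under 0.25 times their median, a pattern found in 0.304% of the 7240 genes at that level. *Rps18* (chr17:33951999-33955641, minus strand), which encodes a protein of the head of the small subunit, was at 0.494, 157.6 and 148.4 FPKM in the wild-type libraries and at 0.462, 0.258, 118.7 and 133.5 FPKM in the mutant libraries. Wild-type replicate 1 and mutant replicates 1 and 2 were thus near 0, and the other 4 libraries at over 100 FPKM, in both genotypes. *Rpl3* (chr15:80077781-80083406, minus strand), which encodes a protein near the catalytic centre of the large subunit, was at 21.9, 43.15 and 46.2 FPKM in the wild-type libraries and at 23.3, 0.667, 40.3 and 46.5 FPKM in the mutant libraries. The same 3 libraries were the lowest.

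Reads in repeat elements showed no such gap. Inside *Rps18* they numbered 156, 122 and 162 in the wild-type libraries, against 89, 83, 119 and 114 in the mutant libraries over 5 loci, 3 of them touching an exon, with mutant replicates 1 and 2 lowest and wild-type replicate 1 near the top. Inside *Rpl3* they numbered 94, 56 and 94 in the wild-type libraries, against 39, 55, 86 and 65 in the mutant libraries over 3 intronic loci. *Rps18* had 57.3% of its windows in other genes and *Rpl3* 79.4%. One window of each coding sequence with an exact match in 5 other annotated genes is shown, since these bases alone cannot place a read. Reads were longer than the window and came in pairs, so bases outside it may still tell the copies apart. Capitals are not used because no base differs.
Rps18 coding bases 225 to 324: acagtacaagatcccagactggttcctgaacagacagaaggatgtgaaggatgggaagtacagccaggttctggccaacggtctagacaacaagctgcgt
Rpl3 coding bases 351 to 450: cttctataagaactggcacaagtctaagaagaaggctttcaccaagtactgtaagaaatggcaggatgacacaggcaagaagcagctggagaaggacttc

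**Figure D3:**
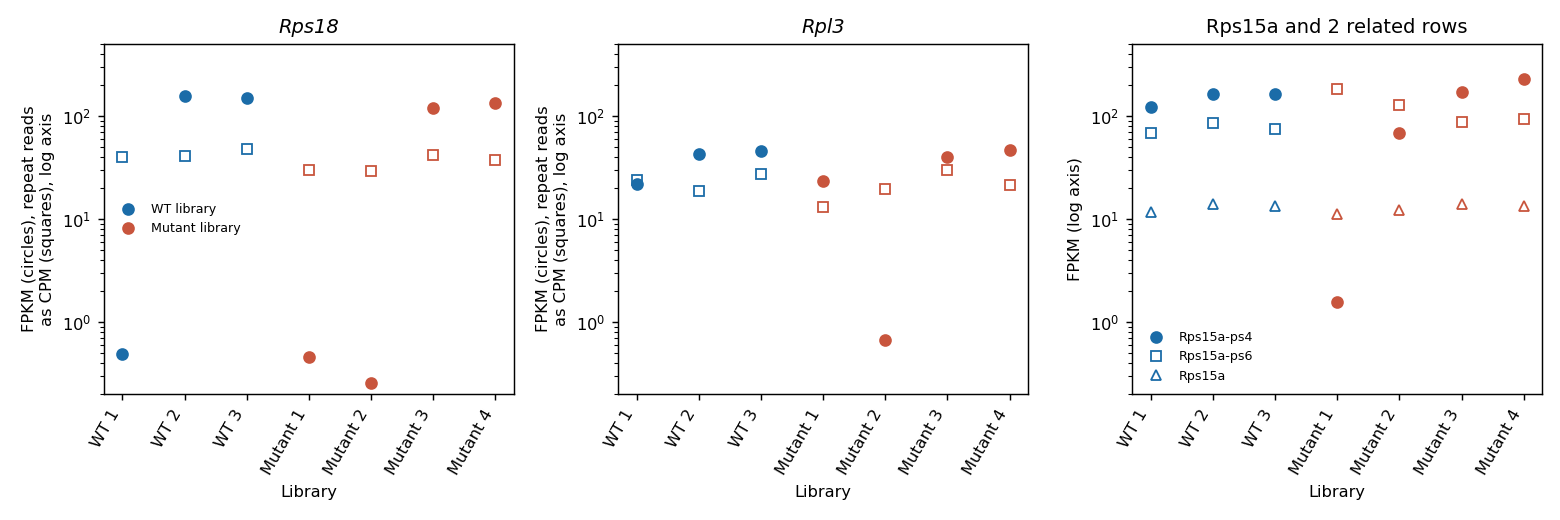
Level in each of the 7 libraries (log axis; blue, wild-type; red, mutant) of *Rps18* and *Rpl3*, with FPKM as circles and reads in repeat elements as squares (CPM, scaled to the library), and FPKM of *Rps15a*, *Rps15a-ps4* and *Rps15a-ps6*. FPKM of *Rps18* lies below 1 in wild-type replicate 1 and mutant replicates 1 and 2, where the squares lie between 29.6 and 39.7 CPM, against 37.7 to 47.6 CPM in the other 4.

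Wild-type replicate 1 and mutant replicates 1 and 2 were also the 3 libraries with the lowest sum of FPKM over all genes, at 694243, 831918 and 776951 FPKM, against 956697 FPKM or more in the other 4. Without *Rmrp*, a short RNA that held the largest FPKM value, their sums were 519076, 580496 and 542057 FPKM and remained the lowest. They were the 3 lowest libraries in 13 of the 75 members with a mean of at least 0.5 FPKM (17.3%), an order found in 2.88% of the 13988 genes at that level, and the 3 highest in 3 members (4.0%, against 8.06% of genes). Among the 13 were *Rps14*, *Rps15a*, *Rps18*, *Rps20*, *Rps26*, *Rpl3*, *Rpl13a*, *Rpl22*, *Rpl30*, *Rpl36al* and *Rplp1*, and the 3 were *Rpl15*, *Rplp2* and *Rps9*. This set of libraries was defined from the data and not by the labels, holds both genotypes, and was looked at after the values had been seen.

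In most of the 13 members the step was small. The mean of the other 4 libraries was 1.08 to 1.27 times that of the 3 in 10 members, 1.92 times in *Rps26*, 2.88 times in *Rpl3* and 345 times in *Rps18*. *Rps26*, which encodes a protein at the mRNA exit of the small subunit, was at 98.2, 144.8 and 165.8 FPKM in the wild-type and at 45.3, 102.8, 167.1 and 153.9 FPKM in the mutant libraries, with mutant replicate 1 lowest. With the 3 libraries as a term in the fit, the log2 difference of *Rps18* between genotypes went from -1.46 (standard error 2.46) to -0.26 (standard error 0.10, adjusted p = 0.191 from limma).

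Related rows outside the rule split between the same libraries. *Rps15a-ps4* was at 121.0, 161.8 and 161.8 FPKM in the wild-type and at 1.58, 68.6, 171.3 and 230.8 FPKM in the mutant libraries. *Rps15a-ps6* ran the other way in mutant replicates 1 and 2, at 68.8, 85.2 and 75.4 FPKM in the wild-type and at 181.1, 129.3, 87.7 and 94.25 FPKM in the mutant libraries. Summed with *Rps15a* they came to 201.5, 261.1 and 250.5 FPKM in the wild-type and to 193.9, 210.1, 273.0 and 338.4 FPKM in the mutant libraries. *Gm15772*, listed on the span of *Rpl26*, was at 40.6, 322.8 and 206.4 FPKM and at 60.6, 41.2, 197.9 and 366.8 FPKM, and reads of such overlapping rows cannot be told apart. These rows were chosen after their values were seen.

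No member passed the threshold between genotypes. Of the 75 members tested, 0 had an adjusted p under 0.05 in limma, against 1 of all 13988 genes (0.00715%). At an unadjusted p under 0.05 there were 12 members (16.0%), against 17.0% of all genes tested. They divided unevenly, with 11 lower in the mutant libraries (14.7%, against 8.79% of genes) and 1 higher (1.33%, against 8.21%). In 10 members every mutant library was below every wild-type library (13.3%, against 7.59% of genes), and in 1 every mutant library was above (1.33%, against 7.31%). The 7 members under the filter of a mean of 0.5 FPKM (*Rpl3l*, *Rpl9*, *Rpl10*, *Rpl12*, *Rpl23a*, *Rpl28* and *Rps12*) were not tested.

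The members lay slightly below 0 as a group. Their median log2 fold change was -0.09, with 55 lower (73.3%) and 20 higher, against a median of 0.01 and 47.9% lower over all genes tested. Medians were -0.08 for the 29 small subunit and -0.10 for the 41 large subunit genes tested. For the 12 canonical members with under 10% of windows elsewhere the median was -0.02, with 7 lower and 5 higher and none at an unadjusted p under 0.05, and for the 23 tested members with at least 50% it was -0.16, with 19 lower and 4 higher. Per library, the median deviation of the 70 canonical members from their own mean was -0.03, 0.08 and 0.08 in the wild-type libraries, against -0.04, -0.06, -0.04 and 0.04 in the mutant libraries, so wild-type replicate 1 lay with the lower libraries and mutant replicate 4 between the groups. All 10 genes of a fetal Leydig cell list had a positive log2 fold change, with a median of 0.42 and 9 at an unadjusted p under 0.05 (background 8.21% in that direction). They summed to 1932 to 3052 FPKM in the wild-type and to 2965 to 3568 FPKM in the mutant libraries, and their part in the values of the members was not tested.

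**Figure D4:**
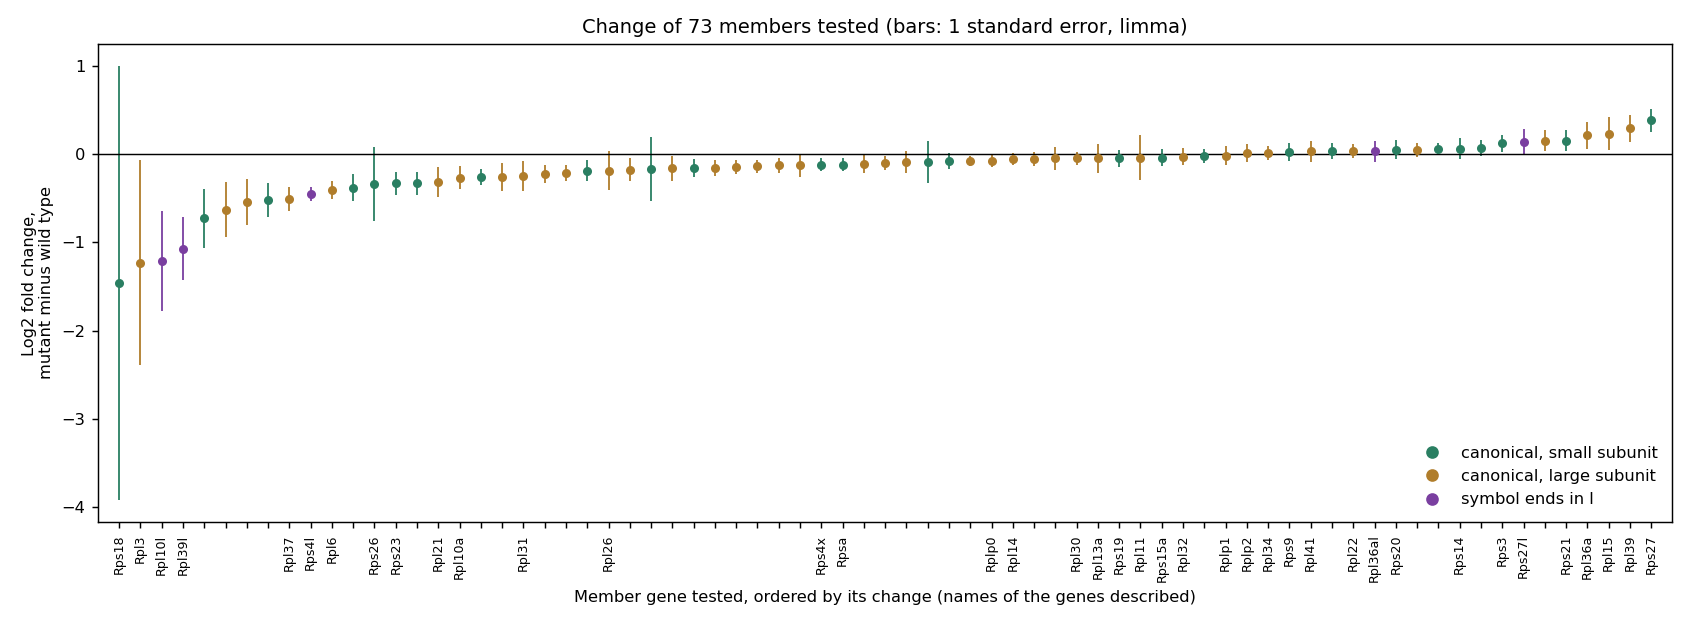
Log2 fold change (mutant minus wild type, of FPKM + 0.5) of 73 of the 75 members tested, ordered by size, with bars of 1 standard error from limma (green, small subunit; ochre, large subunit; purple, symbol ends in l). Of the points, 53 lie below 0 and 20 above, the 2 lowest, *Rps18* and *Rpl3*, have the longest bars, and *Rpl10l* and *Rpl39l* follow.

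The 4 largest negative log2 differences among canonical members whose groups did not overlap were in genes of low FPKM. *Rpl37* was at 7.44, 7.77 and 6.77 FPKM in the wild-type and at 3.95, 4.81, 5.07 and 6.36 FPKM in the mutant libraries, which is a log2 difference of -0.51 (standard error 0.14, adjusted p = 0.18). *Rpl6* was at 7.37, 7.60 and 7.42 FPKM and at 6.24, 4.73, 5.22 and 5.90 FPKM (-0.41, standard error 0.10, adjusted p = 0.169). Both encode proteins of the large subunit. *Rps23*, whose protein lies at the decoding centre of the small subunit, was at 10.1, 9.03 and 8.82 FPKM and at 6.03, 6.66, 8.50 and 8.33 FPKM (-0.33, standard error 0.13, adjusted p = 0.251). *Rpl21* was at 8.80, 8.88 and 9.38 FPKM and at 4.75, 8.15, 7.99 and 8.18 FPKM (-0.32, standard error 0.17, adjusted p = 0.381), with mutant replicate 1 apart from the other 3, and differed by -0.15 without that library. Leaving out wild-type replicate 3 as labelled, the limma adjusted p was 0.0868 for *Rpl37* and 0.0889 for *Rpl6*. None of the 4 passed the threshold, and between 16.7% and 54.2% of their windows were found in other genes. *Rpl21*, with the lowest of these shares, had 55 copies of at least 95% identity. *Rpl37* had 1, *Rpl6* 4 and *Rps23* 10.

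The proteins of the P-stalk, which recruit elongation factors to the ribosome, differed little. *Rplp0* was at 421.8, 408.2 and 461.1 FPKM in the wild-type and at 403.6, 405.0, 392.7 and 428.1 FPKM in the mutant libraries, with overlapping groups (log2 fold change -0.08, standard error 0.07). *Rplp1* had means of 2171 ± 98.8 FPKM (SD, n = 3) for wild type and 2153 ± 202.3 FPKM (SD, n = 4) for mutant. *Rplp2* differed by 0.01 on the log2 scale (standard error 0.10). *Rpsa*, a small subunit protein also known as the laminin receptor, was at 134.1, 127.4 and 133.9 FPKM and at 133.2, 118.1, 113.8 and 121.4 FPKM (-0.12, standard error 0.07). Groups overlapped in all 4 genes. The abundant members *Rpl41* and *Rps9* differed by 0.03 and 0.02, with standard errors of 0.12 and 0.10.

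The members whose symbol ends in l fell into different patterns. *Rpl10l* was at 26.8, 47.0 and 7.28 FPKM in the wild-type and at 16.6, 8.69, 6.81 and 6.18 FPKM in the mutant libraries. The first 2 wild-type libraries were above all mutant libraries and the library labelled wild-type replicate 3 was among them, so the groups overlapped. The log2 difference was -1.21, with a standard error of 0.57 (adjusted p = 0.327 in limma). *Rpl39l*, related to a small protein of the exit tunnel, was at 47.0, 98.9 and 29.5 FPKM and at 31.6, 18.8, 22.7 and 25.7 FPKM, with only mutant replicate 1 above the lowest wild-type library (-1.07, standard error 0.36, adjusted p = 0.21). The summed germ cell genes had the same 2 libraries highest, all 15 of them had a negative log2 fold change with a median of -0.89, and their part in these differences was not tested.

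*Rps4l* was steadier. It was at 222.4, 214.7 and 210.9 FPKM in the wild-type and at 165.0, 138.7, 169.8 and 157.9 FPKM in the mutant libraries, and the mutant libraries were all below the wild-type libraries, replicate 3 included. Its means were 216.0 ± 5.90 FPKM (SD, n = 3) and 157.9 ± 13.7 FPKM (SD, n = 4), a log2 difference of -0.45 (standard error 0.08, adjusted p = 0.133). Its unadjusted p in limma (0.000355) was below that of every other member, yet it did not pass after adjustment over all genes. Its canonical gene *Rps4x* was at 255.8, 291.2 and 279.6 FPKM and at 266.2, 242.5, 244.2 and 259.8 FPKM, with overlapping groups (-0.12, standard error 0.07, adjusted p = 0.416).

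The remaining relatives lay at very different levels. *Rps27l* was abundant in every library, at 431.3, 469.9 and 568.0 FPKM in the wild-type and at 434.7, 520.2, 569.9 and 636.4 FPKM in the mutant libraries, a log2 difference of 0.14 (standard error 0.14). *Rpl36al* was at 323.7, 429.2 and 398.5 FPKM and at 371.5, 353.1, 393.8 and 443.7 FPKM (0.03, standard error 0.12, a sign that turned under quantile normalization). *Rpl3l* was at 0.214 to 0.658 FPKM and was not tested. The list of 12 skeletal muscle genes summed to 95.1, 52.7 and 64.1 FPKM in the wild-type and to 80.3, 78.35, 57.9 and 146.0 FPKM in the mutant libraries, and mutant replicate 4, the highest, had 0.279 FPKM of *Rpl3l*.

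Without the library labelled wild-type replicate 3, 3 members (4.0%) passed the threshold, as did 720 of 13988 genes (5.15%), so the share of members was no higher than that of all genes. They were *Rps4l* (log2 fold change -0.47, standard error 0.09, adjusted p = 0.0316 in limma), *Rpl10l* (-1.94, standard error 0.38, adjusted p = 0.0329) and *Rpl39l* (-1.47, standard error 0.30, adjusted p = 0.0345). Leaving out any other library left 0 members past the threshold. Without wild-type replicate 2, the log2 fold change was -0.64 for *Rpl10l* (adjusted p = 0.553) and -0.61 for *Rpl39l* (adjusted p = 0.255), whereas that of *Rps4l* stayed between -0.49 and -0.39 whichever library was left out.

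The only member whose mutant libraries were all above the wild-type libraries was *Rps27*, the relative of *Rps27l*. It was at 5.58, 7.06 and 6.99 FPKM in the wild-type and at 9.13, 10.4, 7.5 and 7.83 FPKM in the mutant libraries (log2 fold change 0.38, standard error 0.13, adjusted p = 0.214 in limma). Among the other canonical genes of the pairs, *Rpl39* was at 602.9, 813.6 and 774.7 FPKM and at 761.7, 902.0, 824.9 and 1092 FPKM (0.29, standard error 0.15), and *Rpl36a* at 2.41 to 2.62 and 2.52 to 4.12 FPKM (0.21, standard error 0.15). Neither passed the threshold.

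Ratios of each relative to its canonical gene within a library were computed for the 6 pairs, with 0.5 FPKM added to both genes, so the scaling of a library cancels only where both lie well above that value. The log2 ratio of *Rps4l* to *Rps4x* was -0.20, -0.44 and -0.41 in the wild-type libraries, against -0.69, -0.80, -0.52 and -0.72 in the mutant libraries, lower in all mutant libraries by -0.33 on average (two-sided exact permutation test over 35 splits, p = 0.0571). The ratio of *Rpl39l* to *Rpl39* was -3.67, -3.03 and -4.69 in the wild-type libraries, against -4.57, -5.55, -5.15 and -5.38 in the mutant libraries, a difference of -1.37 (exact permutation p = 0.0857). Leaving out wild-type replicate 3 as labelled gave differences of -0.36 and -1.81 (exact permutation p = 0.0667 for both, the smallest then possible). The ratio for *Rpl10l* to *Rpl10* differed by -1.55 with overlapping groups (exact permutation p = 0.0857), and it rests on a canonical gene at 0.116 to 0.692 FPKM. With 0.1 FPKM added in place of 0.5 it differed by -1.92 (exact permutation p = 0.0286), and with 1 FPKM by -1.39 (exact permutation p = 0.143). Without any addition the FPKM of *Rpl10l* was 63.0 to 125 times that of *Rpl10* in the wild-type libraries and 13.7 to 41.7 times in the mutant libraries, with no overlap. The differences were -0.18 for *Rpl36al*, -0.24 for *Rps27l* and 1.0 for *Rpl3l*, each with overlapping groups (exact permutation p = 0.4, 0.4 and 0.686). The last of these came from the *Rpl3* value of mutant replicate 2 and was -0.19 without that library. With 0.5 added none of the 6 reached 0.05, and the smallest p this design allows is 0.0286.

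**Figure D5:**
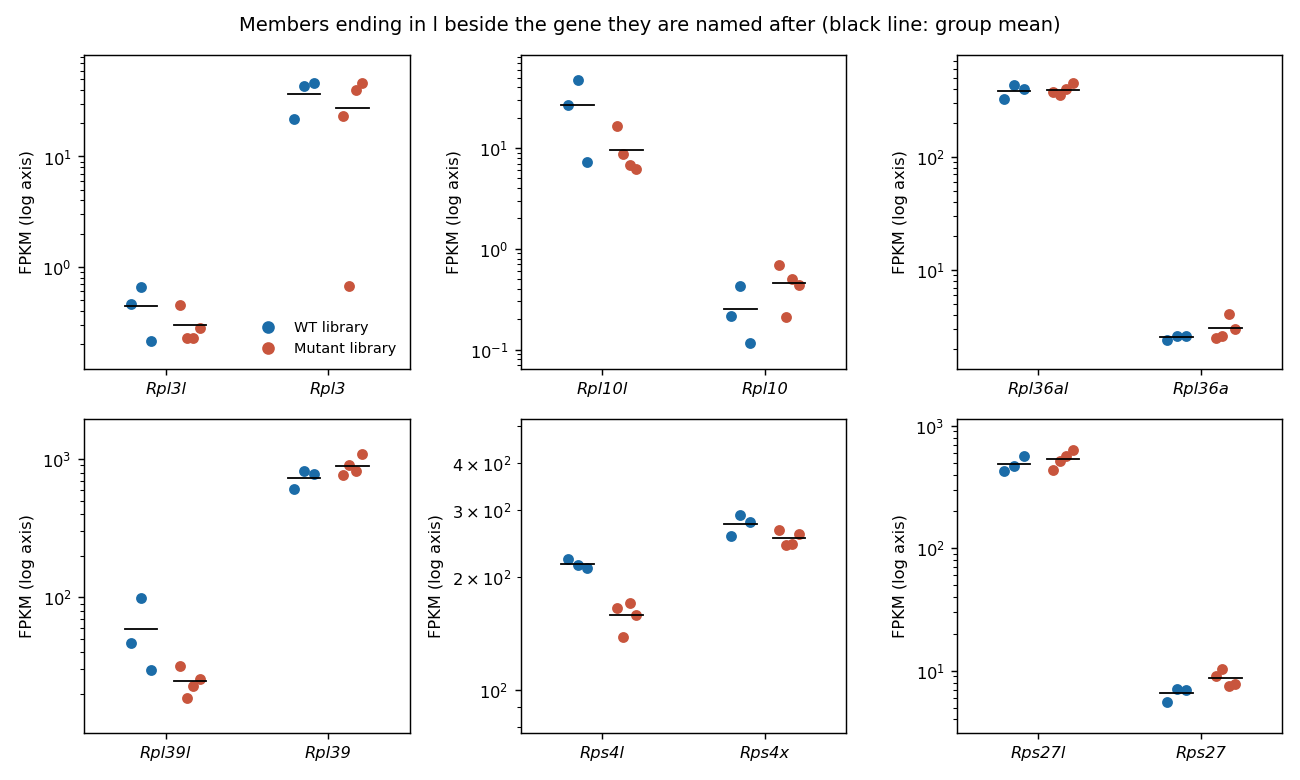
FPKM on a log axis of the 6 members whose symbol ends in l, each beside the gene it is named after, with 1 point per library (blue, 3 wild-type; red, 4 mutant) and a line at the mean. The groups are apart only for *Rps4l* and *Rps27*, while *Rpl10l* and *Rpl39l* have 2 wild-type libraries above the rest.

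Reads in repeat elements inside the members gave no call either. Of 58 members tested with a mean of at least 5 reads per library, 0 passed the threshold in the quasi-likelihood test of edgeR (1 of 13571 genes, 0.00737%) and 0 in DESeq2, and 3 (5.17%) had an unadjusted p under 0.05 in edgeR (2 in DESeq2), against 12.5% of all genes tested. All 3 were lower, *Rpl39l* and *Rps19* among them. *Rpl39l* had 59, 105 and 20 reads in the wild-type libraries, against 30, 18, 28 and 25 in the mutant libraries over 8 loci (log2 fold change -1.09, adjusted p = 0.333 in edgeR), with the same 2 libraries high as in FPKM. Without the library labelled wild-type replicate 3 it passed (-1.51, adjusted p = 0.0343), and without wild-type replicate 2 the difference was -0.29 (adjusted p = 0.767). The median over the 58 members was 0.04.

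Ribosomal proteins that the symbol rule left out lay near the members. *Gnb2l1*, which encodes the scaffold protein RACK1 of the small subunit, was at 2231 to 2529 FPKM over the 7 libraries (log2 fold change -0.04, standard error 0.10). *Rps3a1* was at 107.1 to 131.4 FPKM. *Fau*, which encodes Rps30 fused to a ubiquitin-like protein, was at 6.83 to 10.5 FPKM, and *Rpl34-ps1*, which shares the place of *Rpl34*, near 0. Among 2 further relatives with a name in l1, *Rpl22l1* was at 225.9, 293.8 and 261.8 FPKM and at 257.8, 281.2, 244.8 and 331.0 FPKM (0.10, standard error 0.12). *Rpl7l1* was at 74.4, 69.7 and 65.25 FPKM and at 59.4, 56.0, 63.55 and 61.4 FPKM, lower in all mutant libraries (-0.21, standard error 0.07, adjusted p = 0.208 in limma).

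Other genes of translation gave no call either, and no test compared these lists with the members. Of 38 translation factors, all tested, 0 passed the threshold, 29 were lower and 9 higher with a median of -0.08, and 7 had an unadjusted p under 0.05, all lower (background 8.79% in that direction). Of 15 regulators of ribosomal protein mRNA, such as the mTOR pathway, 0 passed, with 11 lower and a median of -0.03. The 76 mitochondrial ribosomal protein genes tested, which build the separate ribosome of mitochondria, had 0 past the threshold, 40 lower and 36 higher, and a median of -0.02.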

How the data were processed

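Whole testes of 7 embryos at E14.5 were profiled by RNA-Seq (3 wild-type, 4 mutant; groups and replicate numbers from the labels). The authors filtered reads on base quality, merged runs of a library, aligned to mm10 with TopHat2 2.0.12 as unstranded reads with several alignments allowed per read, and made FPKM values per RefSeq gene with Cuffquant and Cuffnorm. The deposited FPKM are scaled by that workflow and hold no counts. From uniquely mapped reads, the authors obtained counts per LINE, SINE or LTR element with HTSeq. The deposited counts are not normalized (3454317 to 4670830 reads per library, which limits precision in genes with few reads). All columns of per-sample values were used, and Cuffdiff was not run here, since it needs aligned reads.

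FPKM of all genes with a mean of at least 0.5 were tested as log2(FPKM + 0.5) with limma 3.58.1 (trend, two-sided) in R 4.3.3, with Benjamini-Hochberg adjustment over 13988 genes and a threshold of 0.05. Fold changes on this scale understate changes of low genes. Repeat counts wholly inside the span of 1 gene of the deposited gene table (bedtools 2.31.1) were summed per gene. GENCODE M21 served in this step only to mark loci that touch an exon. The sums were tested over 13571 genes with the edgeR 4.0.16 quasi-likelihood test (TMM), with DESeq2 1.42.0 as an alternative. Single ratios had two-sided exact permutation tests. Shared sequence was found by exact matching in Python 3.11.15 and with BLAST 2.17.0. No genome sequence, promoter or protein was analysed here. Of the 10 lists of genes used, those of Sertoli cells, skeletal muscle, erythroid cells, endothelial cells and macrophages had median log2 fold changes of 0.13, 0.59, -0.08, 0.02 and 0.22 and 0 genes past the threshold.

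Members and lists were chosen with earlier results of these data known. Named were the 6 members ending in l and their canonical genes, *Rplp0*, *Rplp1*, *Rplp2*, *Rpsa*, every member past the threshold, of the others the 4 largest rises and falls without overlap and the 3 highest and lowest by mean FPKM, and the ribosomal proteins outside the symbol rule. Other genes were named after their values had been seen. Values of some genes are not reported here, although they enter the fits and the counts. Alternatives were pseudocounts of 0.1 and 1, dropping the filter or raising it to 2 FPKM, quantile scaling, median centring, no trend, array weights, a replicate block and each library left out. For repeat reads they were DESeq2, its size factors, dropping the filter or raising it to 20 reads, the block and each library left out.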

Additional observations from a re-analysis of the deposited data

Results flagged for a closer look

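In each group of 4 mutant libraries the gap of the highest or lowest library to its nearest neighbour was set against the whole range (Dixon's ratio). The 101 groups of values looked at were the FPKM of members and of rows outside the symbol rule, the 6 ratios and the repeat reads of 4 genes. Rows outside the rule entered only with a mean of at least 0.5 FPKM, whereas members entered at any level. The single genes of the other lists were not looked at. Of these, 5 exceeded the 95% critical value, and chance gives about 1 in 20. *Rpl21* had a ratio of 0.944, with mutant replicate 1 at 4.75 FPKM and the others at 7.99 to 8.18. *Rpl32* had a ratio of 0.939, with mutant replicate 3 at 1231 FPKM and the others at 1443 to 1457. *Fau* had a ratio of 0.912, with mutant replicate 3 at 10.5 FPKM and the others at 7.48 to 7.74. *Rpl9* had a ratio of 0.887, with mutant replicate 4 at 0.143 FPKM and the others at 0.0704 to 0.0786, all near the bottom of the table. Reads in repeat elements inside *Rps19*, scaled to the library, had a ratio of 0.89, with 45 reads in mutant replicate 3 and 56 to 62 in the others.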

How the results depend on the processing

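The count of members past the threshold stayed at 0 under every alternative except without the library labelled wild-type replicate 3, where it was 3, so leaving out 1 library gave 0 to 3 (1 instead of 0 for repeat reads, range 0 to 1). The number with an unadjusted p under 0.05 was 7 with array weights, 17 under quantile normalization and 8 to 16 without 1 library, against 12 in the main fit. A term for the 3 libraries of low FPKM sum, chosen after seeing the data, also gave 17. The median log2 fold change was -0.166 under quantile normalization and -0.127 to -0.079 without 1 library. For alternatives chosen after seeing the data, the canonical members with under 10% of windows elsewhere had 0 with such a p and a median of -0.023, and a term for the 3 libraries of low FPKM sum, or the other 4 libraries alone, left 0 members past the threshold with medians of -0.074 and -0.081. The ratio of *Rpl10l* to *Rpl10* differed by -1.92 with a pseudocount of 0.1 (exact permutation p = 0.0286). With a pseudocount of 1 it differed by -1.39 (exact permutation p = 0.143), and without 1 library by -2.16 to -1.15. The ratio of *Rpl3l* to *Rpl3* ranged from -0.19 to 1.56 without 1 library. Signs turned in members near 0. Under quantile normalization *Rpl36al* was at -0.04, *Rpl41* at -0.13 and *Rps9* at -0.08. With the term for library sets *Rplp1* was at 0.0069 and *Rplp2* at -0.02, and in the 4 libraries alone *Rplp1* was at 0.03. Without 1 library, ranges were -0.09 to 0.12 for *Rpl36al*, -0.08 to 0.02 for *Rplp1*, -0.08 to 0.11 for *Rplp2*, -0.02 to 0.08 for *Rpl41*, -5.1e-05 to 0.05 for *Rps9* and -0.39 to 0.01 for repeat reads in *Rpl3*. The cause was not tested.

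Wild-type and mutant labels share replicate numbers 1 to 3. Deviations of same-numbered libraries had correlations across genes of 0.198, -0.177 and 0.229, against -0.303 to 0.172 for libraries of different numbers. Numbers 1 and 3 thus had the highest values and number 2 did not. The numbers were not taken as pairs in the main fit. With a replicate block 0 members passed, 16 had an unadjusted p under 0.05, the median was -0.116, and *Rpl36al* (-0.03) and *Rpl41* (-0.004) changed sign. Depth per gene cannot be read from FPKM, so no counting error can be set beside these values.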
